A study of Mus musculus with 9 samples.

Results

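The carriers described here are 36 genes of the solute carrier families SLC4, SLC8, SLC9, SLC12 and SLC26, taken from 19505 genes with a symbol on the array. They were chosen by name, as every symbol of these families followed by the letter a and a number, with Slc12a2 left out. The 36 fall into 9 genes of SLC4, 3 of SLC8, 7 of SLC9, 7 of SLC12 and 10 of SLC26, each read by 1 transcript cluster, the array's unit for the transcripts of a gene.

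RNA came from the submandibular glands, a pair of major salivary glands, of C57BL6/J mice, all female and 12 weeks old. The 9 arrays form groups of 3: mock surgery with 3 days of healing, partial removal of the gland with 3 days of healing, and partial removal with 14 days of healing. Mock glands were sampled on day 3 only, so at day 14 resection and time since surgery cannot be told apart. The labels call the replicates biological and do not say whether each was 1 mouse, so the p-values measure the spread between these samples. Levels are log2 values on the scale the authors deposited, and a difference of 1 is 2-fold on that scale.

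Saliva is made in stages, and these carriers serve each of them. In acini, chloride taken up across the basal membrane leaves through apical channels and draws sodium and water with it, and basolateral sodium/proton and chloride/bicarbonate exchangers hold cell pH and add to chloride uptake. Ducts then take sodium and chloride back and add bicarbonate through apical sodium/proton exchangers, SLC26 anion exchangers and the sodium-coupled bicarbonate carriers of SLC4. Sodium/calcium exchangers of SLC8 remove calcium from the cytosol, and some SLC9 exchangers set the pH inside the Golgi and endosomes.

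Resection was followed on day 3 by higher Slc9a9 and Slc8a1 and lower Slc12a8, and 0 of the 36 carriers passed the test on day 14. The promoters of these 3 genes are shown because they are the only carriers that passed the threshold in any comparison. Sequences are from RefSeq (build GRCm38.p6), 250 bases before to 50 after the transcription start, written 5′ to 3′ on the gene's strand. Capitals mark matches, on either strand, to 1 of 5 motifs. The letters AGGAAG are the core of many ETS factor sites. TGANTCA is a loose form of the AP-1 site, with any base at N where the site has C or G. CACGTG is the E-box that clock factors bind. TTCNNNGAA is the STAT site. TATAAA is the TATA box. Slc9a9 lies at chr9:94669642-94669941 (plus strand), Slc8a1 at chr17:81738338-81738637 (minus strand), and the first of 3 Slc12a8 promoters at chr16:33517078-33517377 (plus strand).
Slc9a9: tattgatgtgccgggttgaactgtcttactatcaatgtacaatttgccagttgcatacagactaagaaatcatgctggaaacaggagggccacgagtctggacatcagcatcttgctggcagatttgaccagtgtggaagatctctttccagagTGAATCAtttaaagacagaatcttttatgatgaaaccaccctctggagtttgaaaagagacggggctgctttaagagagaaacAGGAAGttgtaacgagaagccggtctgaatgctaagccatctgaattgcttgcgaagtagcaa
Slc8a1: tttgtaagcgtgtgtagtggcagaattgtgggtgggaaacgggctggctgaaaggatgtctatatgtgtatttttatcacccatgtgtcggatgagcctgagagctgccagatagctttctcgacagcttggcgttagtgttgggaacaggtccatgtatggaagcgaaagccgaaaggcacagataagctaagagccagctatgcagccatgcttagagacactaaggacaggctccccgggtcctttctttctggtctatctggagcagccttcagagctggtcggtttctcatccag
Slc12a8: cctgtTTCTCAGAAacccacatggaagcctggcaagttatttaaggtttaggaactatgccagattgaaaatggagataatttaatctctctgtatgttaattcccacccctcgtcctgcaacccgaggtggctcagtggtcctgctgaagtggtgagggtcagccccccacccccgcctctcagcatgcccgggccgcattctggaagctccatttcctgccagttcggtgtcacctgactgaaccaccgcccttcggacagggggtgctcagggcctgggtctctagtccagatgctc

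The Slc9a9 window held TGAATCA from base -96 and AGGAAG from base -13 relative to the start. TGAATCA has A at the open position, so it matches only the loose form of the AP-1 site. The Slc8a1 window held none of the 5 motifs. The Slc12a8 window shown held TTCTCAGAA from base -245, and its other promoters, starting at chr16:33517945 and chr16:33518285, each held 1 ETS core. Among all 32851 promoter windows of this length the ETS core was found in 35.4% and the loose AP-1 form in 7.81%. The E-box was found in 7.15%, STAT in 8.3% and the TATA box in 13.6%. The windows of Slc9a9 and Slc8a1 had 6 and 9 CpG dinucleotides, and the Slc12a8 windows had 8, 3 and 6. The 36 windows found for 28 of the 36 carriers had a median of 11.5 and a range of 1 to 50, against a median of 7 over all windows. A match of letters is a description of the sequence only.

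Tissue identity and depth of signal were checked first. On every array the secreted salivary proteins Prol1, Pip and Car6 read 19.93, the highest value of the table, or at most 0.1 less. Array medians ran from 5.09 to 5.24 and replicates had correlations of 0.985 to 0.990 over the transcript clusters. The table has no detection calls, so levels were set beside the median of 5222 negative control rows, which ran from 4.41 to 4.52 on mock, 4.65 to 4.77 on day 3 resected and 4.51 to 4.61 on day 14 resected arrays. That median exceeded the mock mean by 0.25 on day 3, and its part in the results below was measured by centring on it. Of the 36 carriers, 14 were above it on all 9 arrays, 6 on 1 to 8 arrays and 16 on 0 arrays. The 16 include carriers best known from other organs, such as the kidney cotransporters Slc12a1 and Slc12a3, the neuronal Slc12a5, the hair cell motor protein Slc26a5 and the thyroid and inner ear exchanger Slc26a4. The 16 also include Slc4a3 and Slc4a9, chloride/bicarbonate exchangers, and Slc4a8 and Slc4a10, sodium-coupled bicarbonate carriers. These classes were named above for acini and ducts. A level at or below this median does not show absence.

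Sodium/proton exchangers of organelles held the largest change. Slc9a9, an exchanger of endosomes, read 6.87, 6.03 and 5.74 on mock arrays 1 to 3, 7.81, 8.73 and 8.50 on day 3 resected arrays, and 6.51, 6.80 and 7.20 on day 14 resected arrays. All day 3 resected arrays lay above all mock and all day 14 arrays. Slc9a9 rose by 2.13 ± 0.33 (SE) on day 3, from 6.21 ± 0.59 to 8.35 ± 0.48 (SD, n = 3 each; limma adjusted p = 0.00149). Its difference from mock on day 14 was 0.62 ± 0.33 (adjusted p = 0.659), with mock replicate 1 above 2 of the 3 day 14 arrays.

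Slc9a7, an exchanger of the trans-Golgi network, went the other way without passing the test. It read 8.03, 7.94 and 8.26 on mock arrays, 7.30, 7.74 and 7.13 on day 3 resected arrays, and 8.09, 7.98 and 8.42 on day 14 resected arrays. Every day 3 resected array was below every other array. The difference was -0.69 ± 0.23 on day 3 (limma adjusted p = 0.110). Slc9a7 passed after quantile normalisation (adjusted p = 0.0420) and after centring on the negative controls (adjusted p = 0.0215). Slc9a8, a further Golgi exchanger, differed by -0.04.

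The Slc9 exchangers of the cell surface, Slc9a2, Slc9a3, Slc9a4 and Slc9a5, had 0 of 4 past the threshold, with differences of -0.64 to -0.01 on day 3. Slc9a3, the apical exchanger that takes up sodium in kidney, gut and salivary ducts, read 9.76, 9.79 and 8.94 on mock arrays, 9.11, 9.22 and 8.49 on day 3 resected arrays, and 9.63, 9.46 and 10.49 on day 14 resected arrays. Mock and day 3 arrays overlapped, while all day 14 arrays exceeded all day 3 resected arrays. Its difference from mock was -0.56 ± 0.33 on day 3 (adjusted p = 0.402) and 0.36 ± 0.33 on day 14 (adjusted p = 0.819).

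Slc9a4, a basolateral exchanger known from stomach and kidney, varied most among replicates, with a pooled within-group SD of 0.67 against a median of 0.31 for the carriers and 0.31 for all transcript clusters. It read 8.62, 6.84 and 7.14 on mock arrays, 7.17, 7.13 and 6.36 on day 3 resected arrays, and 7.17, 6.41 and 7.29 on day 14 resected arrays. Mock replicate 1 stood above the others. The day 3 difference of -0.64 ± 0.42 (adjusted p = 0.463) became -0.10 without that array, and the day 14 difference of -0.58 ± 0.42 (adjusted p = 0.766) became -0.04.

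Among sodium/calcium exchangers, Slc8a1, the widely expressed exchanger best known from heart muscle, read 3.15, 3.61 and 3.41 on mock arrays, 4.93, 4.71 and 4.28 on day 3 resected arrays, and 3.09, 3.31 and 3.47 on day 14 resected arrays. The day 3 resected arrays stood clear of both other groups, which overlapped each other. Slc8a1 rose by 1.25 ± 0.23 on day 3, from 3.39 ± 0.23 to 4.64 ± 0.33 (SD, n = 3 each; limma adjusted p = 0.00543), and differed by -0.10 ± 0.23 on day 14 (adjusted p = 0.947). It exceeded its array's negative control median on 1 of 9 arrays, so its rise took place at a signal near that of the controls. With negative control centring the difference was 1.01. Slc8a2 and Slc8a3, better known from brain and muscle, each differed by 0.14 on day 3.

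**Figure D1:**
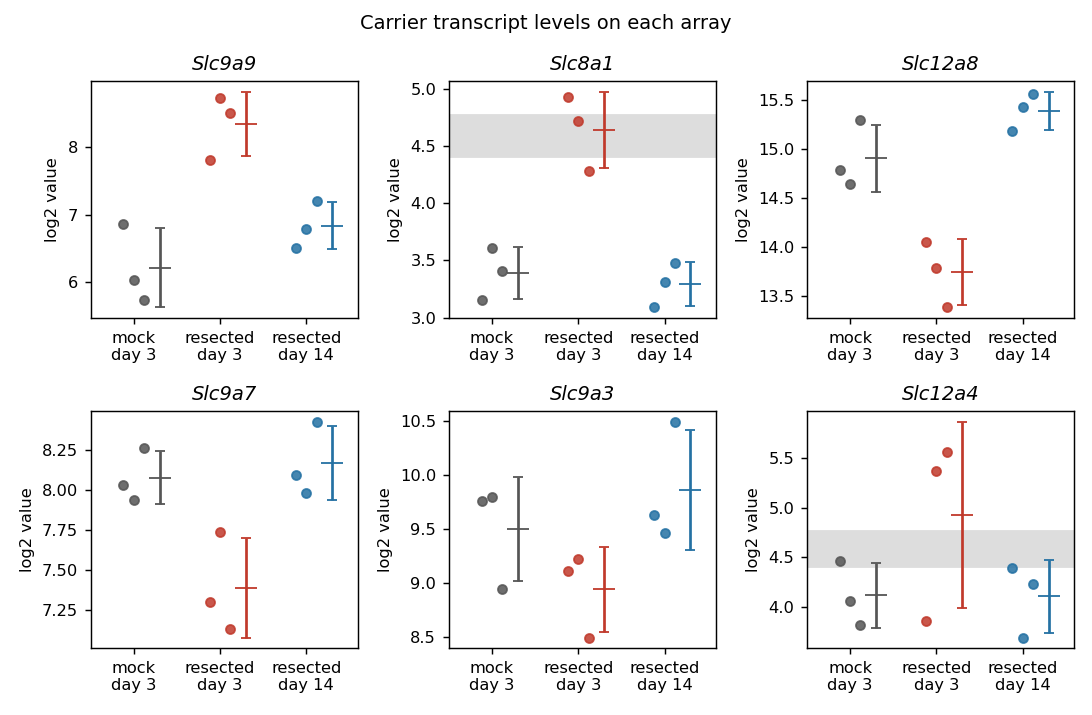
Log2 value (vertical axis) of 6 carriers on each array, with bars at the group mean ± SD (n = 3); the grey band in the panels of Slc8a1 and Slc12a4 spans the negative control medians of the 9 arrays, and vertical axes differ. Slc9a9 and Slc8a1 are highest and Slc12a8 lowest on the 3 day 3 resected arrays, while Slc12a4 is high on 2 of these 3.

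The chloride carriers of SLC12 held the one fall. Slc12a8, a distant member of the family whose substrate is debated, read 14.79, 14.65 and 15.30 on mock arrays, 14.06, 13.79 and 13.39 on day 3 resected arrays, and 15.19, 15.43 and 15.57 on day 14 resected arrays. The day 3 resected arrays were all below the other 6. Slc12a8 fell by 1.16 on day 3 (-1.16 ± 0.25), from 14.91 ± 0.34 to 13.74 ± 0.34 (SD, n = 3 each; limma adjusted p = 0.0124). It did not pass when mock replicate 3 was left out (-0.97, adjusted p = 0.0534), nor when replicate 3 of the day 3 resected arrays was (-0.98, adjusted p = 0.0686). On day 14 the difference from mock was 0.48 ± 0.25 (adjusted p = 0.653), and Slc12a9, the other distant member, differed by 0.28 with groups that did not overlap (adjusted p = 0.750).

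Of the potassium-coupled carriers that let chloride out of cells, 0 of 3 passed. Slc12a4, which is widely expressed and serves cell volume, read 4.47, 4.06 and 3.82 on mock arrays, 3.85, 5.37 and 5.56 on day 3 resected arrays, and 4.39, 3.69 and 4.23 on day 14 resected arrays. Replicate 1 of the day 3 resected arrays lay within the mock range and the other two above it. The difference of 0.81 ± 0.39 (adjusted p = 0.291) became 1.35 without that array, where it passed (adjusted p = 0.0150). Slc12a4 exceeded its array's negative control median on 3 of 9 arrays, so this difference was measured near the level of the controls.

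Slc12a5, the neuronal member, read 3.44, 3.29 and 3.08 on mock arrays, 2.81, 2.82 and 3.29 on day 3 resected arrays, and 2.53, 2.88 and 2.60 on day 14 resected arrays. The day 14 arrays were all below the mock arrays, and all 9 values were below the negative control median. Its day 14 difference was -0.60 ± 0.22 (adjusted p = 0.510). Slc12a7 differed by 0.30 on day 14, and the sodium-coupled Slc12a1 and Slc12a3 by -0.47 and 0.31 on day 3.

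None of the bicarbonate carriers of SLC4 passed in any comparison. The chloride/bicarbonate exchangers Slc4a1, Slc4a2, Slc4a3 and Slc4a9 differed by -0.43 to 0.19 on day 3 and by -0.19 to 0.31 on day 14. Slc4a2 is a basolateral exchanger of salivary acini and Slc4a1 the abundant exchanger of red blood cells. Slc4a2 exceeded the negative control median on 7 of 9 arrays and Slc4a9 on 0. The sodium-coupled carriers Slc4a4, Slc4a5, Slc4a8 and Slc4a10 differed by -0.48 to 0.27 on day 3 and by -0.34 to 0.46 on day 14. The positive extreme on day 14 was Slc4a5, which read 3.83, 3.86 and 4.52 on mock arrays, 4.52, 4.24 and 4.27 on day 3 resected arrays, and 4.70, 4.52 and 4.37 on day 14 resected arrays. Mock replicate 3 reached into the range of both resected groups, and the day 14 difference of 0.46 ± 0.23 had an adjusted p of 0.649. Slc4a5 exceeded the negative control median on 2 of 9 arrays. Slc4a11, known from the corneal endothelium and the only member of its branch, differed by -0.09 on day 3.

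The 10 SLC26 genes, exchangers and channels for chloride, bicarbonate, sulfate and iodide, also had 0 past the threshold. Their differences ran from -0.47 to 0.46 on day 3 and from -0.25 to 0.45 on day 14. Slc26a9, a chloride channel of airway and stomach, was the day 14 maximum. It read 3.79, 3.38 and 3.73 on mock arrays, 3.90, 3.29 and 3.78 on day 3 resected arrays, and 4.16, 3.74 and 4.34 on day 14 resected arrays. The groups overlapped, the day 14 difference was 0.45 ± 0.24 (adjusted p = 0.669), and all 9 values were below the negative control median. Slc26a2, a sulfate carrier, and Slc26a6, an apical chloride/bicarbonate exchanger of secretory ducts, shared an outlying array: mock replicate 3 was the highest of the 9 for both, at 12.30 and 8.75. Slc26a11 varied as widely, from 5.60 to 7.32 within the day 14 group.

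**Figure D2:**
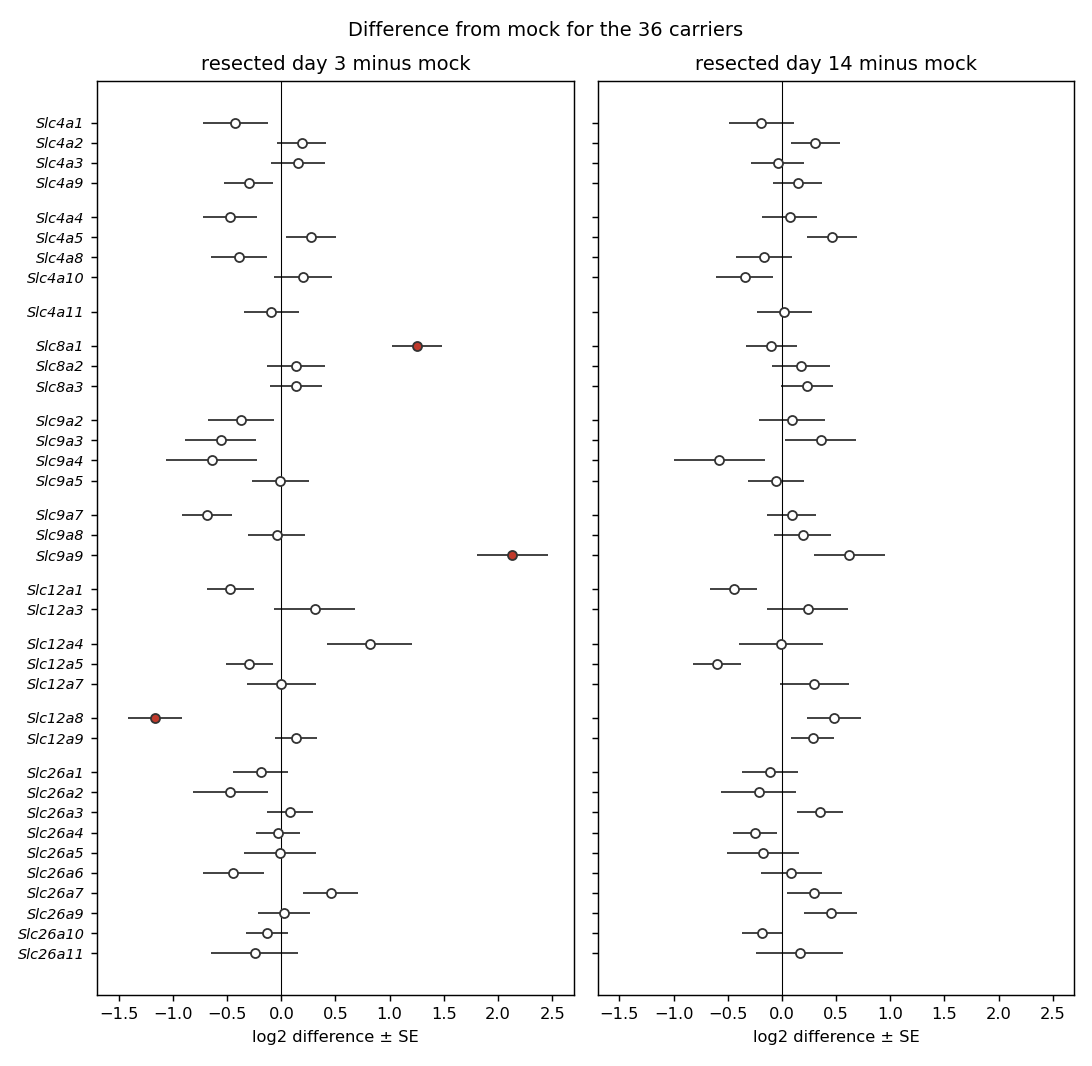
Log2 difference ± SE (horizontal axis) of each of the 36 carriers for day 3 resected minus mock (left) and day 14 resected minus mock (right), both against the same 3 mock arrays, with gaps between roles. Red points passed an adjusted p of 0.05, which 3 did on day 3 and 0 on day 14.

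Counted over the whole group, 3 of 36 carriers (8.33%) passed an adjusted p of 0.05 for day 3 resected against mock, beside 6.27% of all 22206 transcript clusters. Of the carriers, 2 were higher and 1 was lower, beside 4.92% and 1.36% of all transcript clusters. The background split of 1092 higher and 301 lower depended on scaling, with 973 and 452 after quantile normalisation, 1013 and 480 after median centring, and 862 and 1352 after negative control centring. The carriers that passed on day 3 were Slc9a9, Slc8a1 and Slc12a8 under each of these 3 scalings, joined by Slc9a7 after quantile normalisation and negative control centring. Without day 3 resected replicate 3 the background count was 850 and the carrier count 2. At an unadjusted p under 0.05 there were 5 carriers, beside a background of 18.6%. The groups did not overlap for 5 carriers (13.9%), 2 higher and 3 lower, beside 23.0%. The median difference was -0.04 over the carriers and -0.06 over all transcript clusters, with 14 carriers above and 22 below 0. The 95% interval of the difference lay within 1 log2 of 0 for 21 carriers (58.3%), beside 68.7%. These shares are close to the background.

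For day 14 resected against mock, 0 of 36 passed with limma, beside 0.153% of all transcript clusters, and 1 carrier, Slc12a5, had an unadjusted p under 0.05, beside 8.18%. The groups did not overlap for 3 carriers (8.33%, beside 13.0%): Slc12a5 and Slc26a10 lower and Slc12a9 higher. The differences ran from -0.60 to 0.62, with a median of 0.09 against 0.00 for all transcript clusters. The 95% interval stayed within 1 log2 of 0 for 29 of 36 carriers (80.6%, beside 78.3%), so for those a change of 2-fold or more on the deposited scale is outside the interval. For the other 7 the interval reached past that size. Several of the 29, such as Slc4a3, Slc4a9 and Slc26a4, exceeded the negative control median on 0 arrays. For these the interval describes the measured value, and a change of the transcript at low signal may be missed. Clock genes moved on the same arrays: of 12 measured, 2 rose and 5 fell on day 14, and their summed log2 level was 106.2 to 106.7 on mock, 102.9 to 104.4 on day 3 resected and 88.0 to 94.7 on day 14 resected arrays. The part of clock time in the day 14 values was not tested.

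Day 14 resected against day 3 resected, in which the mock arrays cancel, tests whether the difference from mock changed between the days. The same 3 carriers passed (8.33%, beside 6.28%), with Slc12a8 higher and Slc9a9 and Slc8a1 lower on day 14 (beside 1.40% higher and 4.88% lower over all transcript clusters). Slc12a8 rose by 1.65 ± 0.25 (limma adjusted p = 0.00114). Slc8a1 fell by 1.35 (-1.35 ± 0.23, limma adjusted p = 0.00306). Slc9a9 fell by 1.51 (-1.51 ± 0.33, limma adjusted p = 0.0134), a call that was lost without day 3 resected replicate 2 or 3 or day 14 resected replicate 1 (adjusted p 0.0655 to 0.0686).

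Slc9a3 was 0.92 ± 0.33 higher on day 14 than on day 3 (limma adjusted p = 0.137) and Slc9a7 0.78 ± 0.23 higher (adjusted p = 0.0674). Neither passed, although Slc9a7 did after quantile normalisation (adjusted p = 0.0229) and negative control centring (0.0239). Slc12a4 was lower by 0.82 ± 0.39 (adjusted p = 0.279), and by 1.36 without day 3 resected replicate 1 (adjusted p = 0.0134). In all, 6 carriers had an unadjusted p under 0.05, beside 18.9%, and 10 had groups that did not overlap (27.8%, beside 25.4%), 6 higher and 4 lower on day 14. The bicarbonate carriers Slc4a4 and Slc4a9 and the exchanger Slc26a6 were among the 6 that were higher. Slc4a10 (-0.54) and Slc26a4 (-0.22) were among the 4 that were lower. None of these genes passed the adjusted threshold. Slc4a9, Slc4a10 and Slc26a4 exceeded the negative control median on 0 of 9 arrays, and Slc12a4 on 3. The median difference was 0.12 against 0.06 for all transcript clusters, and 24 intervals (66.7%, beside 68.3%) lay within 1 log2 of 0.

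**Figure D3:**
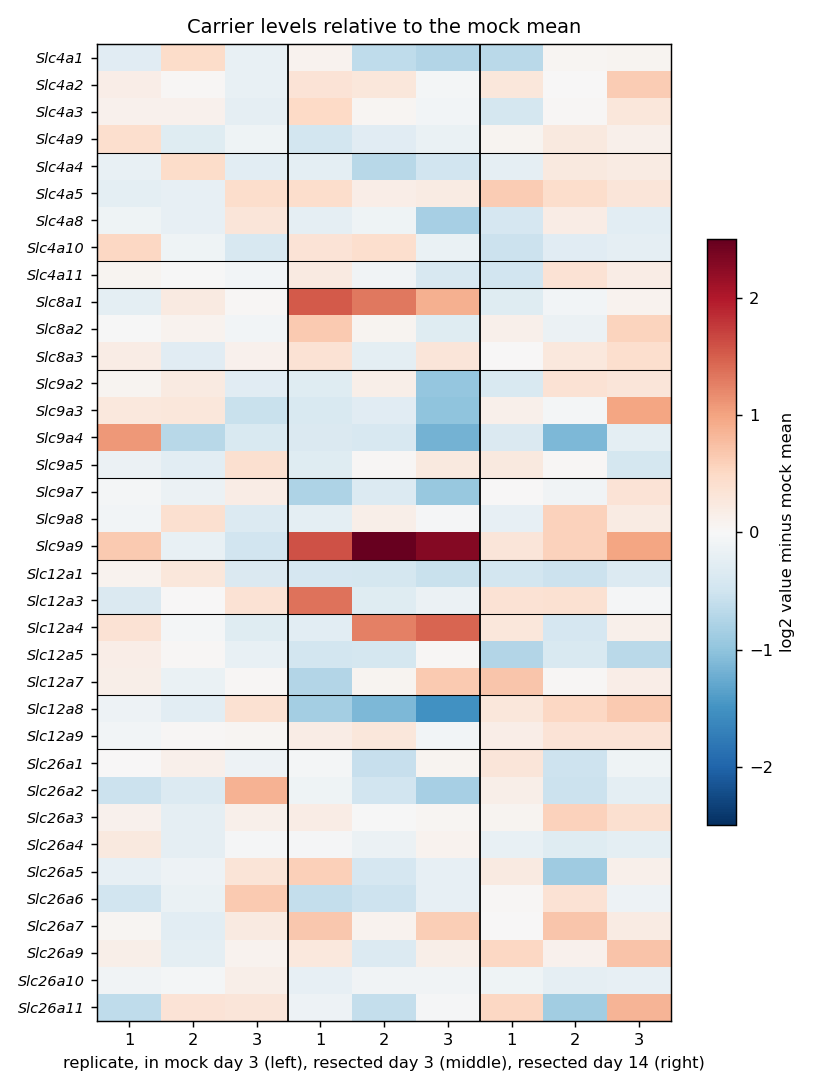
Log2 value minus the mock mean for the 36 carriers (rows, in the order of roles used in the text) on the 9 arrays (columns, replicates 1 to 3 of each group). Slc9a9 and Slc8a1 are red and Slc12a8 blue on all 3 day 3 resected arrays, and Slc9a4 on mock replicate 1 is the farthest mock value from its mean.

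Markers of other cells moved on the same arrays. In whole tissue, fewer cells of a type and less RNA per cell cannot be told apart. Of 9 macrophage markers measured, 9 rose and 0 fell on day 3, with summed log2 levels of 69.8 to 75.9 on mock, 99.0 to 104.2 on day 3 resected and 76.0 to 78.3 on day 14 resected arrays. None of the 9 was below the negative control median on every array. Fibroblast and matrix markers (6 of 7 rose) summed to 67.5 to 72.4, 88.8 to 102.5 and 74.1 to 80.3, and neutrophil markers (3 of 7 rose) to 28.8 to 29.7, 35.9 to 43.1 and 28.1 to 29.2, with Camp below the control median throughout. All 7 cell cycle genes rose, with sums of 38.2 to 52.6, 69.3 to 78.1 and 37.6 to 39.3. The part of these cells in the rise of Slc9a9 and Slc8a1 was not tested.

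Some epithelial markers were lower on the arrays on which Slc12a8 was lower. Granular tubule products (0 of 6 rose and 4 fell on day 3, with Klk1b22 and Klk1b26 at the table maximum on 7 and 8 arrays) summed to 104.1 to 108.9 on mock, 92.5 to 99.3 on day 3 resected and 101.5 to 108.7 on day 14 resected arrays. Serous acinar markers (0 of 9 rose and 3 fell) summed to 136.8 to 138.2, 132.8 to 135.5 and 136.2 to 136.8. Of these, Prol1, Pip and Car6 were at the maximum on all 9 arrays. They could show no rise, and a fall may be hidden. Markers of ducts and ionocytes (1 rose and 1 fell of 9) summed to 87.1 to 90.7, 81.6 to 85.9 and 87.2 to 90.8, with Kcnj1 below the control median throughout. Within the day 3 resected group, replicate 3 was lowest in all 3 of these lists. The 14 carriers above the negative control median on all 9 arrays were compared with this after the values were seen. Replicate 3 was lowest in most of them: Slc4a1, Slc4a11, Slc9a2, Slc9a3, Slc9a4, Slc9a7, Slc12a8, Slc12a9 and Slc26a2. It was in the middle in Slc8a3, Slc9a8 and Slc9a9, and highest in Slc26a6 and Slc26a11. The part of these cells in the fall of Slc12a8 was not tested. Among 3 measured red blood cell markers and 9 of skeletal muscle, 0 passed, with Epb42 and 7 of the muscle markers below the control median on every array. Markers of the neighbouring sublingual gland (0 of 2 passed) summed to 11.4 to 12.1 on mock, 12.1 to 23.5 on day 3 resected and 17.4 to 22.9 on day 14 resected arrays, and their part was not tested. The higher sums came from Dcpp3 (7.98 ± 2.25 on day 3, limma adjusted p = 0.0563, and 10.19 ± 2.25 on day 14, 0.143), while Gcnt3 differed by -0.72 and -1.52.

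**Figure D4:**
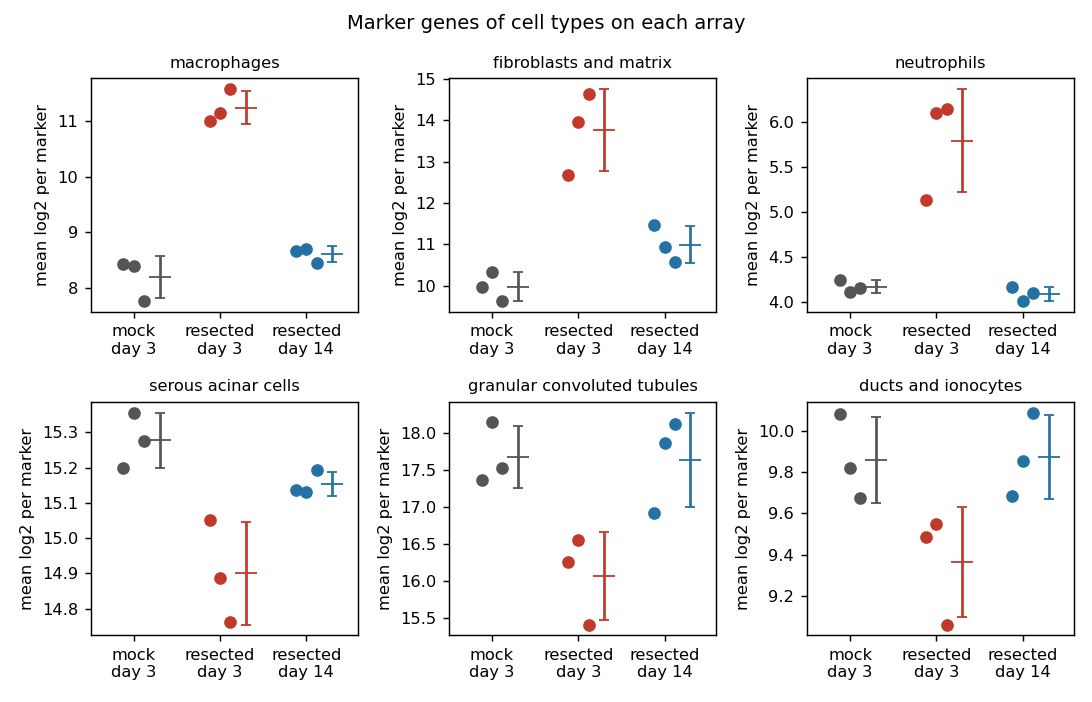
Mean log2 value per marker (vertical axis) of 6 marker lists on each array, with bars at the group mean ± SD (n = 3). Macrophage, fibroblast and neutrophil markers are highest, and serous acinar, granular tubule and duct markers lowest, on the 3 day 3 resected arrays.

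The enzymes, channels and pumps that work with these carriers were counted in the same fit, in which 4.92% of all transcript clusters rose and 1.36% fell on day 3 with a median difference of -0.06. Between the days, 1.40% of all transcript clusters rose and 4.88% fell. Carbonic anhydrases, which make bicarbonate from carbon dioxide and water, had 0 of 16 that rose and 3 that fell on day 3, with a median of -0.27. These were Car8, an anhydrase relative without the enzyme activity (-1.05 ± 0.24, limma adjusted p = 0.0169), Car11, also inactive (-1.07 ± 0.28, 0.0392), and the cytosolic Car13 (-0.84 ± 0.22, 0.0419). Car8 was not called without mock replicate 1 or 2 or resected replicate 2 or 3 (adjusted p up to 0.0760), and Car11 and Car13 without any one of these 4 or resected replicate 1 (up to 0.134 and 0.146). Car13 also lost its call in the fit on only the 2 groups compared (0.0724) and with the replicate block (0.0767). Between the days Car13 rose by 0.88 ± 0.22 (limma adjusted p = 0.0330), which 6 of 15 alternatives did not call: the replicate block (0.0626) and leaving out any 1 resected array except day 14 replicate 1. The secreted Car6 sat at the maximum, where it could show no rise and a fall may be hidden.

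Chloride channels and their subunits had 2 of 18 that rose and 0 that fell on day 3, with a median of 0.10 (beside 4.92% and 1.36% of all transcript clusters and their median of -0.06). Ttyh3, of a family proposed as chloride channels, rose by 1.07 ± 0.22 (limma adjusted p = 0.0113), and was not called without day 3 resected replicate 2 (0.0593). Between the days it fell by 1.02 (-1.02 ± 0.22, limma adjusted p = 0.0148), with adjusted p of 0.0775 and 0.0693 without replicate 2 of day 3 or of day 14. Ano6, a lipid scramblase and ion channel, rose by 1.12 ± 0.29 (limma adjusted p = 0.0388), and lost the call in 8 of 15 alternatives (adjusted p up to 0.171), among them leaving out any 1 of the 6 arrays except resected replicate 1. Ano1, the apical chloride channel of acini, differed by 0.17 ± 0.33, and was singled out after its value was seen, for its role. Cftr, the chloride and bicarbonate channel of ducts, differed from mock by -0.41 ± 0.22 on day 3 and 0.41 ± 0.22 on day 14. Between the days Cftr rose by 0.82 ± 0.22 (limma adjusted p = 0.0424), a call lost in 7 of 15 alternatives, namely the replicate block (0.0595) and leaving out any 1 of the 6 resected arrays (up to 0.168).

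Among sodium pump subunits and potassium channels, 0 of 15 rose and 1 fell on day 3, with a median of -0.34 (beside the same 4.92%, 1.36% and -0.06). Fxyd3, a small regulator of the sodium pump, fell by 1.71 (-1.71 ± 0.33, limma adjusted p = 0.00666) and kept its call in 15 of 15 alternatives. It stood at -1.45 ± 0.33 on day 14 (adjusted p = 0.160). Atp1b3, a pump subunit, fell by 1.14 between the days (-1.14 ± 0.27, limma adjusted p = 0.0236), and was not called after quantile normalisation or negative control centring, nor without day 3 replicate 2 or 3 or day 14 replicate 1 or 3 (up to 0.101). Kinases, scaffolds and partners that regulate the carriers had 0 of 19 past the threshold in each comparison, with a day 3 median of -0.11. Of 21 calcium pumps and channels 0 passed on day 3, with a median of -0.12. Between day 3 and day 14, 2 rose and 0 fell (beside 1.40% and 4.88% of all transcript clusters). These were the Golgi calcium and manganese pump Atp2c1 (1.29 ± 0.22, limma adjusted p = 0.00242) and the sodium/calcium-potassium exchanger Slc24a1 (0.97 ± 0.23, 0.0232, and up to 0.101 without day 3 replicate 1 or 2 or day 14 replicate 2). Slc24a1 exceeded the negative control median on 1 of 9 arrays, with means of 3.54 on day 3 and 4.51 on day 14, so its difference was measured at the level of the controls. On day 14 against mock, 0 members of these 5 lists passed.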

How the data were processed

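Total RNA from submandibular glands was hybridised to 9 Clariom S mouse arrays. Per the submitters' processing notes and the series' design text, the authors made the deposited log2 values with Transcriptome Analysis Console 4.0 and RMA (background subtraction, scaling of the arrays to a common distribution and a summary per transcript cluster). For the genome build, annotation version and scanner, the labels were silent (not given in the sources used here). Values above 16 exist, so the scale may be stretched and a log2 difference is not a calibrated fold change.

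Of 28846 rows, 6640 control rows were left out and 22206 transcript clusters went into 1 linear model per transcript cluster (limma 3.58.1, R version 4.3.3) with a mean for each of the 3 groups (6 residual and 6.63 prior degrees of freedom). Two-sided p-values were corrected over all 22206 within a comparison (Benjamini-Hochberg), with a threshold of 0.05. Symbols are RefSeq names through the Entrez identifier in the platform's table (19572 transcript clusters matched), with the brightest transcript cluster per symbol. The fit was checked on simulated data.

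The carriers, gene lists and motifs were chosen with earlier results of these data known. Values on every array are given for carriers past the threshold in any comparison and, in each comparison, the 6 with the largest absolute difference; others are given by role. Alternatives were quantile normalisation, median centring, leaving out the dimmest 30%, only the 2 groups compared, array weights, robust variances, a mean-variance trend, a replicate block, each array left out, and, chosen after seeing the data, centring on the negative controls. Marker lists of T and B lymphocytes (1 of 9 rose and 1 fell on day 3) and of myoepithelium and smooth muscle (0 of 6 rose and 1 fell) were also counted. So were those of endothelium (0 of 7), adipocytes (0 of 5), nerve and glia (0 of 6) and the sublingual gland (0 of 2). The number of arrays limits the precision.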

Additional observations from a re-analysis of the deposited data

Results flagged for a closer look

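The difference from mock changed between day 3 and day 14 for 3 carriers, by the test of day 14 resected against day 3 resected. The change was -1.35 log2 for Slc8a1, -1.51 for Slc9a9 and 1.65 for Slc12a8, each in the direction opposite to the day 3 difference. Both tests use the day 3 resected arrays, with opposite sign, so the opposite directions are not independent evidence. Mock glands were sampled on day 3 only, so this test compares resected glands alone. The 3 arrays of one resected group did not overlap the 3 of the other for any of these genes, which the same test had selected. Over all transcript clusters, 25.4% did not overlap. The causes were not tested.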

How the results depend on the processing

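Carriers past the threshold numbered 3 on day 3 (2 to 4 with 1 array left out, 3 to 4 otherwise), 0 on day 14 in all alternatives run, and 3 between the days (2 to 4 and 3 to 4). Over all transcript clusters, the day 3 count of 1393 was 850 to 1295 with 1 array left out (lowest without day 3 resected replicate 3) and 2214 with negative control centring. The day 14 count of 34 was 20 to 58 with 1 array left out (lowest without replicate 2 of the resected arrays, next 22 without their replicate 3, and 58 without mock replicate 3) and 56 with a mean-variance trend. Between the days, 1394 became 874 to 1386 with 1 array left out (874 without day 3 resected replicate 3). The causes were not tested. For the 16 carriers below the negative control median on every array, a change at low signal may be missed. Negative control centring shifted the median of all transcript clusters by -0.25 on day 3 and 0.15 between the days.

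Replicate numbers did not pair the arrays: deviations of same-numbered arrays from their group means correlated at -0.09 to 0.05 (9 pairs), and the best match had the same number in 2 of 18 cases. With a replicate block the counts were 1283, 26 and 1297 over all transcript clusters and 3, 0 and 3 among the carriers. Each carrier has 1 transcript cluster, so counting clusters separately changed nothing.

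Signs turned only for differences that did not pass. The day 3 difference of Slc26a9 (0.02) became -0.050 with median centring, -0.04 with array weights, -0.22 with negative control centring, and -0.10 to 0.21 with 1 array left out, below 0 when the second mock array (-0.10) or replicate 1 or 3 of the resected arrays (-0.096 and -0.037) was the one omitted. On day 14, Slc12a4 (-0.01; -0.16 to 0.20) became 0.17 without mock replicate 1 and 0.20 without replicate 2 of the resected arrays, Slc8a1 (-0.10) became 0.011 without mock replicate 2 and 0.0032 without replicate 1 of the resected arrays, and Slc9a7 (0.09; -0.039 to 0.18) became -0.039 without day 14 resected replicate 3 and -0.0033 with negative control centring. Between the days, Slc9a4 (0.07; -0.20 to 0.34) became -0.20 without the third replicate of day 3, -0.041 without the first of day 14 and -0.10 without the third of day 14.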
